A study of Mus musculus with 31 samples.

Results

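The genes described here encode the proteins of the cytosolic ribosome, and they were followed in mouse bone-marrow macrophages given LPS or live E. coli. Members were chosen by gene symbol alone: 71 probes on the array carry a symbol of the form Rpl or Rps followed by a number, p or a, and removal of the kinase gene Rps6kb2 left 70 of the 13872 probes, or 70 of 10600 named genes. Rpl39l, 1 of the 70, is described apart from the other 69, which stand for 69 different genes with 1 probe each. They comprise 38 proteins of the large subunit, 23 of the small subunit, 3 of the stalk (Rplp0, Rplp1 and Rplp2) and 5 paralogs of standard ribosomal proteins (Rpl3l, Rps27l, Rpl36al, Rpl7l1 and Rpl22l1).

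Each ribosome carries 1 copy of nearly every ribosomal protein, so growing cells make these messages in large and matched amounts. Most mouse ribosomal protein messages begin with a run of pyrimidines, the terminal oligopyrimidine (TOP) tract, through which the kinase mTOR controls their translation, so that output can change while the message level stays steady. Rpl39l is a close relative of Rpl39 and is known mainly from the testis, where it takes the place of Rpl39 in the ribosome of male germ cells.

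The samples were macrophages grown in culture for 8 days with L929-conditioned medium from bone marrow of mice 6 to 8 weeks old, either wild-type or MyD88-deficient (MyD88-/-), for which the labels name the strain C57BL/6J. MyD88 links nearly all Toll-like receptors to their kinases, and the LPS receptor also signals through a separate adaptor, TRIF. The labels do not give the disrupted allele. Cells were exposed for 2 hours to re-purified LPS at 10 ng/mL or to live E. coli at 1 bacterium per macrophage, and cells of the same genotype given medium alone (mock) were hybridised with them on each 2-colour spotted array. Genotype and stimulus thus form 4 groups of 4 mice, measured on 31 arrays. A mouse has a pair of arrays with the dyes exchanged, and only MyD88-/- LPS mouse 4 has a single array. Where 4 values are listed for the groups in order, the first pair is LPS in wild-type and then in MyD88-/- cells, and the second pair is E. coli in wild-type and then in MyD88-/- cells. The deposited log2 ratios were averaged over the pair. Reading them as stimulated over mock is likely, since the titles name the stimulus first and genes known to be induced by LPS have high ratios, but the labels do not state it. A ratio to mock does not give the level of a message, and in these bulk cultures fewer cells of a type and less RNA per cell cannot be told apart. The labels name mice of the same numbers for both stimuli and do not say whether their mock RNA was shared, so the responses to LPS and to E. coli are given side by side and not correlated.

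Between 5564 and 10497 of the probes had a value on an array, counting ratios at the floor of 0.01. Without floor ratios the range was 5356 to 10395. The number of arrays limits the precision. A probe was tested where 3 or more mice of each group had a value, which held for 7325 of 13872 probes (52.8%) and for 49 of the 69 ribosomal protein probes (71.0%). Of the 49, 29 belong to the large subunit, 15 to the small subunit, 1 to the stalk (Rplp1) and 4 are paralogs. Ratios at the floor of 0.01 count as missing in this filter. The median ribosomal protein probe had a value on 31 arrays and the median probe of the series on 20. Of the macrophage markers 9 of 10 were on the array and 7 were tested, and of 8 B cell, 9 T cell, 9 neutrophil, 7 dendritic cell, 7 erythroid and 7 stromal markers 4, 1, 3, 2, 1 and 1 were tested. Blnk, a B cell adaptor that macrophages also express, was lower in all 4 responses, between -0.85 and -0.69. The other marker calls were few. Fcgr1, a macrophage Fc receptor, was called lower in 3 responses, at -0.47 in wild-type LPS, -0.47 in MyD88-/- LPS and -0.58 in wild-type E. coli, and the lysosomal protein gene Cd68 was lower in wild-type LPS, at -0.50. Spi1, the macrophage transcription factor PU.1, was higher in MyD88-/- E. coli, at 0.65. The B cell receptor chain Cd79a was lower in MyD88-/- LPS, at -1.05, the dendritic cell factor Zbtb46 higher in wild-type LPS, at 0.70, and the matrix protein gene Sparc higher in wild-type E. coli, at 0.66. Of the 5 T cell, neutrophil and erythroid markers tested none was called by limma in the 4 responses, and 0 had an unadjusted p under 0.05. Over all probes 21.9% to 32.9% had such a p, and 5 markers are too few to compare with that. Their part in the results on ribosomal proteins was not tested, and ratios cannot show which markers were absent.

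The start regions of 6 genes are shown for their runs of pyrimidines, beside the values that follow. They are Rpl39l, its relative Rpl39, both ribosomal protein genes called in a response (Rps26 and Rpl26), and Rpl15 and Rps10, which came near the threshold. Each line holds the 15 bases before the annotated start and the 15 bases from it, from RefSeq on GRCm38.p6, with the longest run of pyrimidines in capitals.
Rpl39l, chr16:10170213-10170242, plus strand: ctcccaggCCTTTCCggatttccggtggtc
Rpl39, chrX:37085208-37085237, minus strand: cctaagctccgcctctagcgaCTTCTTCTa
Rps26, chr10:128626492-128626521, minus strand: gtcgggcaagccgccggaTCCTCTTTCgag
Rpl26, chr11:68901551-68901580, plus strand: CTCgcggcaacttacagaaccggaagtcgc
Rpl15, chr14:18270972-18271001, minus strand: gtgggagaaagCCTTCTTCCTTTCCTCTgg
Rps10, chr17:27635230-27635259, minus strand: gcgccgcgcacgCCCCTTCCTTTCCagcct
A run of at least 8 pyrimidines lay in this 30-base window at 24 of 69 annotated starts of 57 ribosomal protein genes (34.8%) and at 12.0% of the 32851 starts in the table. Rpl15 and Rps10 have runs of 17 and 13, Rps26 has 9 and Rpl39 has 8. The longest run is 7 at the start of Rpl39l and 3 at that of Rpl26. An annotated start can lie some bases from the one used in these cells, so a short run in this window says only that these letters are not there.

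The 250 bases before the start of Rpl39l and of Rpl39 follow, since the ratios of these relatives lay far apart. Capitals mark the ETS core CCGGAAG, which was searched on both strands.
Rpl39l, chr16:10169978-10170227, plus strand: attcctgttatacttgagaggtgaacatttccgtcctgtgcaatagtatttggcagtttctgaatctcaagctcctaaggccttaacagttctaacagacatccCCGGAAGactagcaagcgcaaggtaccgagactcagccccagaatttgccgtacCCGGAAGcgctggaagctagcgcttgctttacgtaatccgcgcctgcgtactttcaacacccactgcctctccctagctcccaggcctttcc
Rpl39, chrX:37085223-37085472, minus strand: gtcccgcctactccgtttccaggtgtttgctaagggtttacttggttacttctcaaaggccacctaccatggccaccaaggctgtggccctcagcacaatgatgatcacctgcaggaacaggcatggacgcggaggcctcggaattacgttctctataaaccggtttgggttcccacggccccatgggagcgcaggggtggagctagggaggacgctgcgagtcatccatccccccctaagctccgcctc
CCGGAAG occurred at 2 places in the Rpl39l window, was not found in that of Rpl39, and was held by 26.1% of the ribosomal protein starts and 6.91% of all starts. TATAAA, searched likewise, was in the Rpl39 window and not in that of Rpl39l, and was held by 4.35% of ribosomal protein starts and 12.4% of all starts. The AP-1 motif TGANTCA (6.75% of all starts), the GAS motif TTCNNNGAA (7.02%), the core of the interferon-stimulated response element (2.98%) and the NF-kB consensus (7.25%) were found in neither window. Among the ribosomal protein starts their shares were 2.9%, 5.8%, 8.7% and 2.9%. No motif match was tested for binding.

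The Rpl39l probe (probe 2190) rose in all 4 responses, by far more than any other ribosomal protein probe. In wild-type cells given LPS the log2 ratios of the mice were 7.99, 6.15, 6.52 and 6.15, with a mean of 6.70 ± 0.40 (SE, n = 4 mice, limma adjusted p = 2.147e-08), or 104.1-fold. In wild-type cells given E. coli they were 8.48, 9.53, 7.07 and 7.42, with a mean of 8.12 ± 0.40 (limma adjusted p = 1.67e-09), or 278.6-fold. Among the 7325 probes tested it had the largest ratio in size in both wild-type responses.

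In MyD88-/- cells the Rpl39l probe rose less far. With LPS the mice gave 3.46, 4.50, 3.49 and 4.16, with a mean of 3.90 ± 0.40 (SE, n = 4 mice, limma adjusted p = 8.635e-06), or 14.95-fold. With E. coli they gave 2.89, 3.36, 3.78 and 5.04, with a mean of 3.77 ± 0.40 (limma adjusted p = 1.064e-05), or 13.62-fold. For each stimulus every wild-type mouse lay above every MyD88-/- mouse. The same held for 3.28% of all probes tested with LPS and 4.30% with E. coli. By size the probe ranked 13 with LPS and 16 with E. coli among the probes tested.

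The test of the genotype difference for Rpl39l passed for E. coli. The log2 ratio was lower in MyD88-/- cells by a difference of -4.35 ± 0.57 (95% interval -5.57 to -3.14, limma adjusted p = 0.0008097), a 20.45-fold smaller response. For LPS the difference was -2.80 ± 0.57 (95% interval -4.02 to -1.58, limma adjusted p = 0.05817), a 6.962-fold smaller response that missed the threshold over all probes. A 2-sided exact permutation test of 4 mice against 4 gave p = 0.0286 for each stimulus, the smallest that 70 regroupings allow. Any probe with 4 mice a group and no overlap gets this p, so the test only restates the lack of overlap. All probes called for the genotype difference numbered 21 for LPS (0.287% of those tested) and 55 for E. coli (0.751%). The E. coli call was lost on unswapped arrays alone, where the difference was -3.18 (limma adjusted p = 0.3081), and the LPS difference passed in 5 of 28 alternative settings, at an adjusted p of 0.02919 at the lowest and 0.3442 at the highest over all 28.

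Neither comparison between the stimuli passed the test at the Rpl39l probe. In wild-type cells the ratio with E. coli exceeded that with LPS by 1.42 ± 0.57 (95% interval 0.20 to 2.64, limma adjusted p = 0.9989). In MyD88-/- cells the difference was -0.13 (95% interval -1.35 to 1.08, limma adjusted p = 0.9997), and the interaction was -1.55 ± 0.81 (limma adjusted p = 0.9998).

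**Figure D1:**
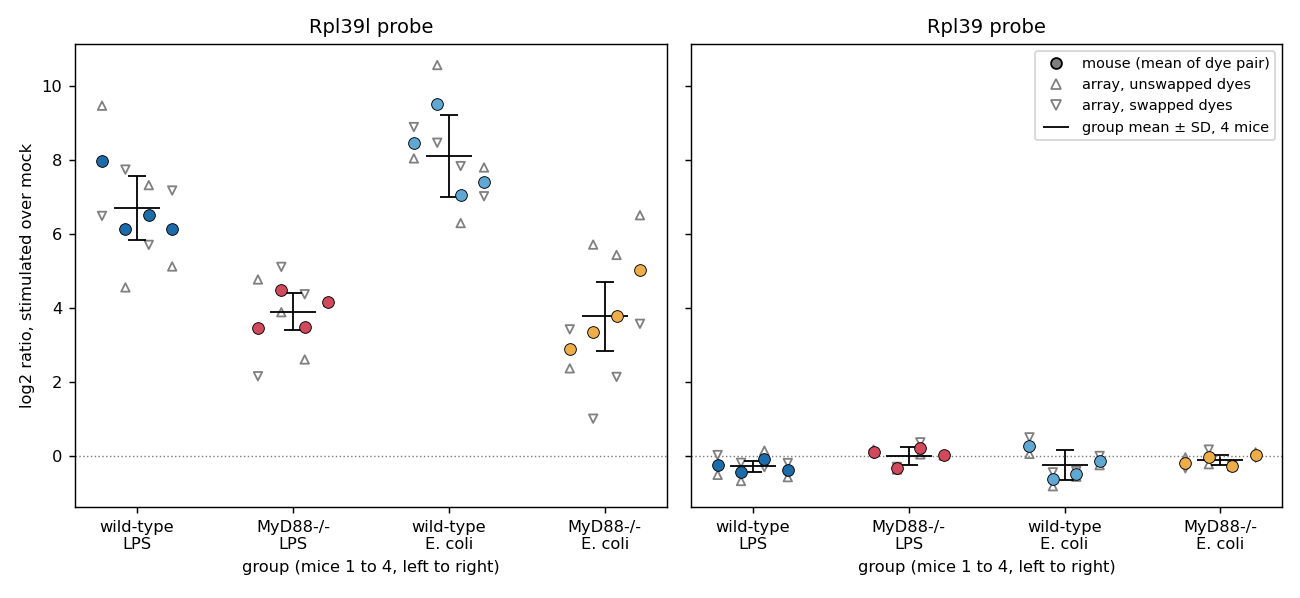
The log2 ratio, stimulated over mock, is plotted for the Rpl39l probe (left) and the Rpl39 probe (right) in each of the 4 groups, with filled circles for mice 1 to 4, open triangles for their arrays by dye orientation and black bars for the group mean ± SD. All Rpl39l points lie above 0 and the wild-type mice lie above the MyD88-/- mice for each stimulus, while Rpl39 stays between -0.64 and 0.27 in every mouse.

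All 31 arrays gave a ratio above 0 at the Rpl39l probe, and the arrays of a mouse differed widely. The lowest array value was 0.999, on the swapped array of MyD88-/- E. coli mouse 2, whose unswapped partner gave 5.72. The highest was 10.58, on the unswapped array of wild-type E. coli mouse 2. The gap within a dye pair ran from 0.78 to 4.72, and the SD between mice was 0.87, 0.51, 1.11 and 0.92 in the 4 groups in order. A dye term fitted over all arrays was -0.63 for this probe (limma adjusted p = 0.4734).

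Rpl39, the standard form of the protein, did not pass the test in any response. Its log2 ratios were -0.25, -0.44, -0.09 and -0.39 in wild-type LPS mice, with a mean of -0.29 ± 0.14 (SE, n = 4 mice, limma adjusted p = 0.1805). The means were -0.01 in MyD88-/- LPS, -0.25 in wild-type E. coli and -0.13 in MyD88-/- E. coli (limma adjusted p = 0.9792, 0.2406 and 0.681).

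The probes whose 16 mouse ratios came closest to those of Rpl39l were those of inflammatory cytokines. Closeness was the mean absolute difference of the log2 ratio over all 16 mouse values, and 5456 probes had all 16. This measure follows the size of the ratios, so the other strongly induced probes come closest. Whether the probes varied together from mouse to mouse was not tested. The closest was Il1b, the interleukin 1 beta gene (probe 10766), at 0.847, followed by the neutrophil attractant Cxcl1 at 1.04, the partner cytokine Il1a at 1.06, Tnf at 1.13 and an unnamed probe (1168) at 1.55. The median over all probes was 5.69 and Rpl39 lay at 5.79. Il1b at probe 10766 gave 6.19, 3.71, 7.86 and 2.96 in the 4 groups in order, beside 6.70, 3.90, 8.12 and 3.77 for Rpl39l. A different Il1b probe (11722) gave -0.52, -0.30, -0.36 and -0.18 in the same order. This probe was called lower in wild-type LPS (limma adjusted p = 0.007169) and wild-type E. coli (limma adjusted p = 0.0469), opposite in sign to probe 10766. The sequence of the Rpl39l probe was not used here, and whether it reads Rpl39l alone was not tested, so the values above belong to the probe that carries this name.

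The other ribosomal protein messages moved little, and 1 at most was called in any response. With LPS, limma called 0 of 49 in wild-type cells, where 17.0% of all probes were called, and 1 of 49 in MyD88-/- cells, where 9.98% were called. With E. coli it called 1 of 49 in wild-type cells, beside 21.2% of all probes, and 0 of 49 in MyD88-/- cells, beside 10.8%. At an unadjusted p under 0.05 the members numbered 3, 4, 8 and 3 in the 4 groups in order, beside 29.2%, 21.9%, 32.9% and 22.2% of all probes.

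Most of the 49 ratios lay just below 0. In wild-type LPS the median was -0.10 with 37 of 49 below 0 (75.5%), beside -0.05 and 54.6% over all probes tested. In wild-type E. coli it was -0.11 with 36 of 49 below 0 (73.5%), beside -0.06 and 55.4%. In MyD88-/- LPS it was -0.04 with 33 below 0 (67.3%), beside -0.05 and 56.4%, and in MyD88-/- E. coli -0.07 with 34 below 0 (69.4%), beside -0.05 and 56.3%. The large-subunit medians were -0.10, -0.06, -0.08 and -0.07 and the small-subunit medians -0.12, -0.04, -0.14 and -0.07 in the 4 groups in order.

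The medians of single mice overlapped between all 4 groups. The lowest was -0.31, in wild-type LPS mouse 4, and the highest 0.09, in wild-type E. coli mouse 1. Wild-type LPS mice 1 to 3 gave -0.08, -0.09 and 0.03, and wild-type E. coli mice 2 to 4 gave -0.21, -0.13 and -0.11. In MyD88-/- cells the medians were -0.04, -0.04, -0.03 and -0.12 with LPS and -0.10, -0.13, -0.04 and 0.04 with E. coli. All 4 medians lay below 0 in MyD88-/- LPS, and each of the other groups held mice on both sides of 0.

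**Figure D2:**
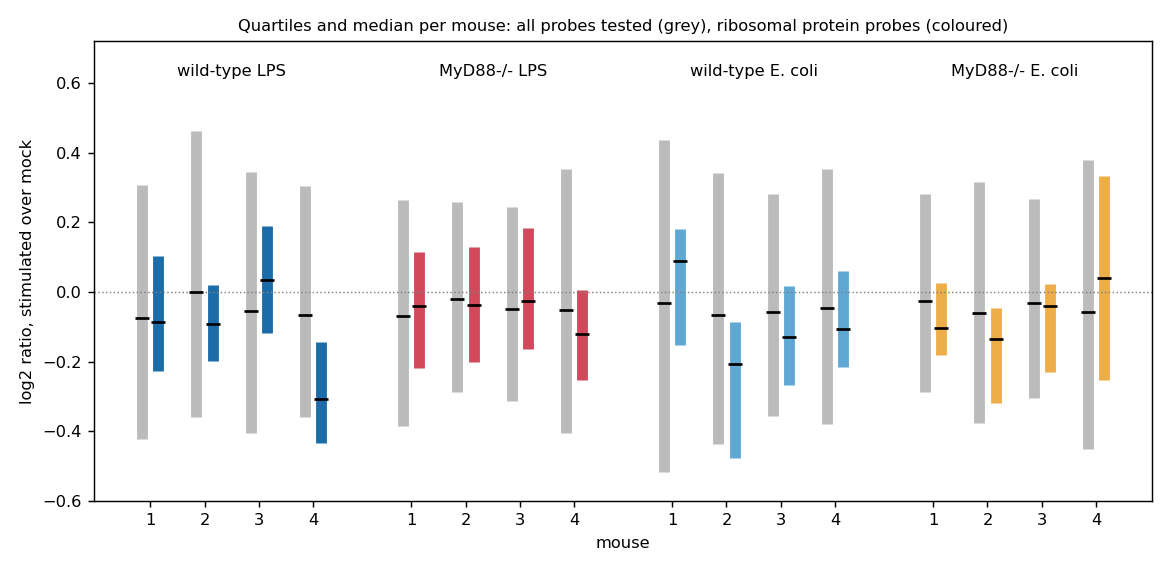
For each of the 16 mouse-level ratios the bars run from the lower to the upper quartile of the log2 ratio, stimulated over mock, over all probes tested (grey) and over the ribosomal protein probes (coloured), with a black dash at the median. The ribosomal protein medians run from -0.31 to 0.09, and their quartiles are narrower than those of all probes in all 16.

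The measurement of these genes was precise enough to bound most of their changes. The median SE of a member was 0.14 in each response and that of all probes was between 0.20 and 0.21. The 95% interval of the log2 ratio lay within 2-fold of mock for 46, 47, 47 and 47 of 49 members in the 4 groups in order, beside 68.1%, 71.0%, 66.0% and 72.6% of all probes tested. It did so in all 4 responses for 44 of 49, and the 5 others were Rpl15, Rpl3l, Rpl6, Rpl26 and Rpl37a. The SD between mice, taken as a median over members, was 0.24, 0.19, 0.22 and 0.23 in the 4 groups, beside 0.35, 0.32, 0.37 and 0.36 over all probes.

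**Figure D3:**
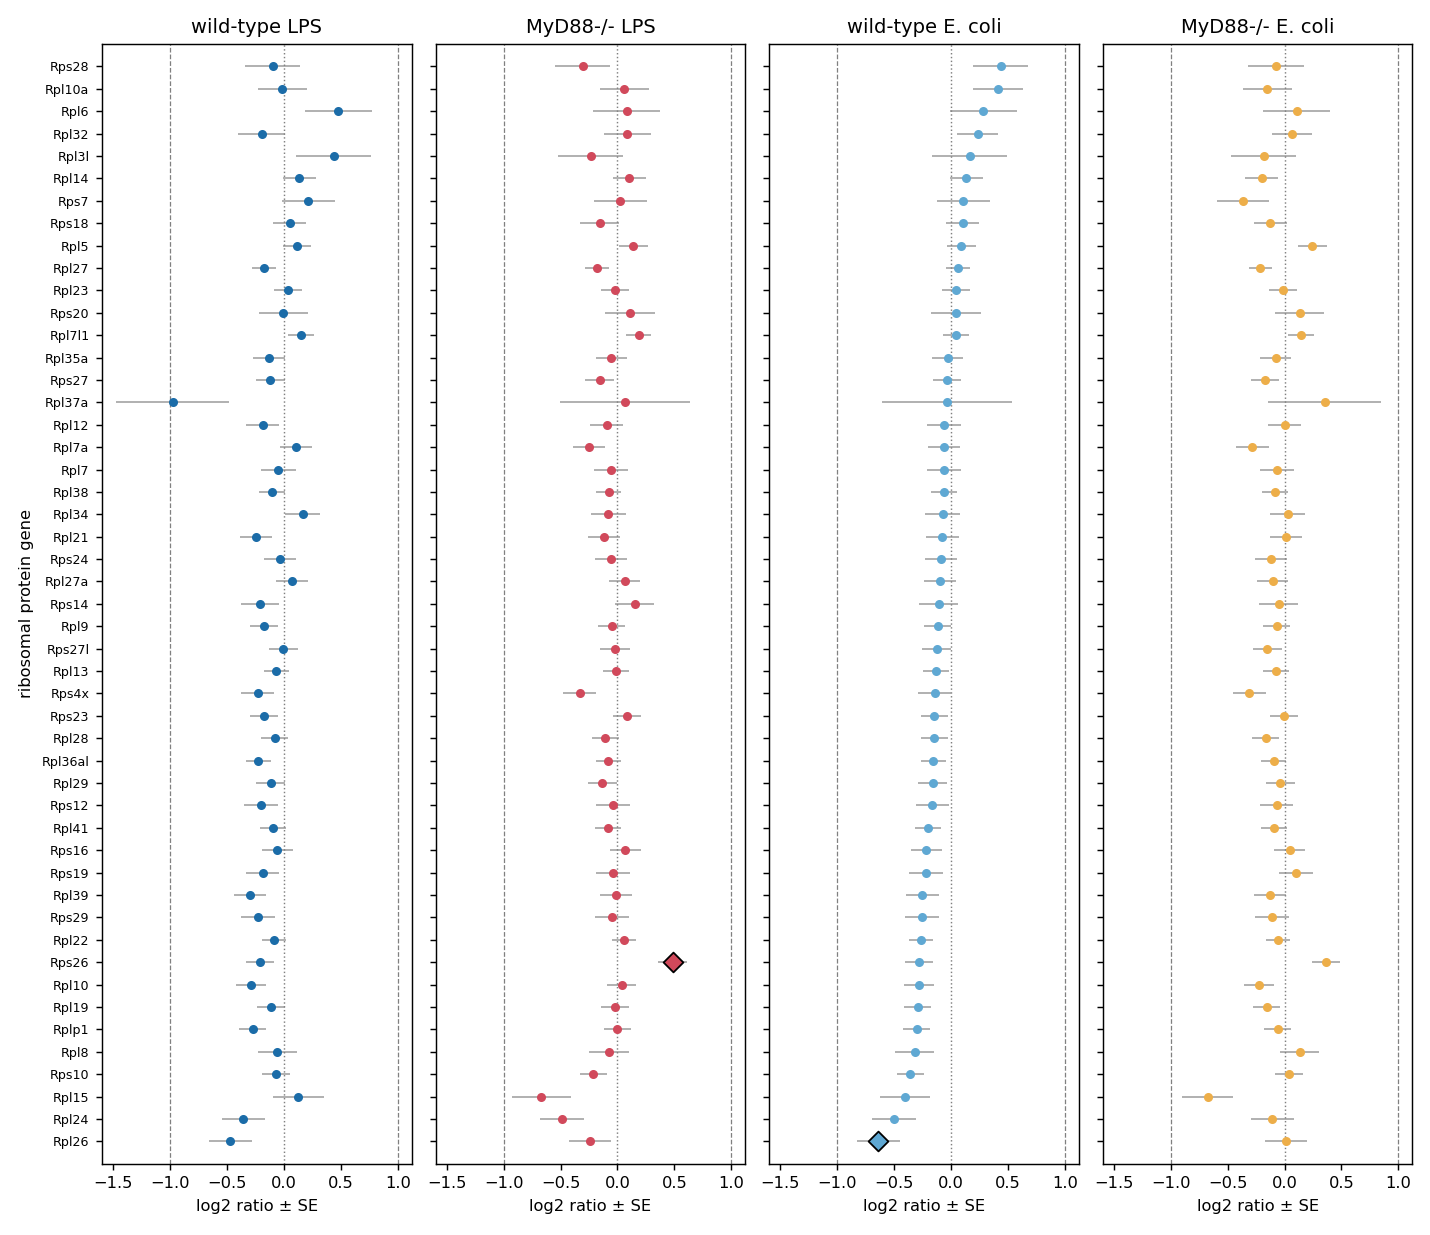
Each panel is a response and each row 1 of the 49 ribosomal protein genes tested, ordered by their ratio in wild-type E. coli; points are limma's log2 ratio, stimulated over mock, with bars of 1 SE, diamonds mark calls at an adjusted p under 0.05 and dashed lines mark a 2-fold change. All 49 points lie within the dashed lines in every panel, and the diamonds are Rps26 in MyD88-/- LPS and Rpl26 in wild-type E. coli.

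Among small-subunit proteins Rps26, which sits at the exit channel for messenger RNA, was called once. In MyD88-/- LPS its log2 ratios were 0.43, 0.49, 0.34 and 0.68, with a mean of 0.48 ± 0.13 (SE, n = 4 mice, limma adjusted p = 0.02061), and in MyD88-/- E. coli they were 0.37, 0.21, 0.37 and 0.51, with a mean of 0.37 (limma adjusted p = 0.08075). Wild-type mice gave -0.67, -0.05, -0.03 and -0.10 with LPS and -0.32, -0.48, 0.04 and -0.36 with E. coli. All 8 MyD88-/- values lay above all 8 wild-type values. The genotype difference was 0.70 ± 0.18 for LPS (limma adjusted p = 0.17) and 0.65 ± 0.18 for E. coli (limma adjusted p = 0.1087), and neither passed. The call in MyD88-/- LPS was lost without MyD88-/- LPS mouse 1, 2 or 4, on swapped arrays alone, with mice of both arrays only and with the groups fitted alone, and the ratio ran from 0.37 to 0.56 over 28 alternatives.

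The other named small-subunit genes did not pass the test. Rps10, near the entry channel for messenger RNA, gave -0.37, -0.51, -0.39 and -0.16 in wild-type E. coli, with a mean of -0.36 ± 0.12 (limma adjusted p = 0.05001), and 0.04 in MyD88-/- E. coli. Rps28 had the highest ratio of the tested members in wild-type E. coli, 0.44 ± 0.24 (limma adjusted p = 0.2332), with mice between -0.33 and 1.31, and 0.15 without mouse 4. Rps4x gave -0.23, -0.33, -0.14 and -0.31 in the 4 groups in order, and Rps7 gave 0.21, 0.02, 0.11 and -0.37. The last value of Rps7 was 0.0091 without mouse 4, at -1.49, and its first was -0.0045 without mouse 3, at 0.86. Rps14 gave -0.21, 0.15, -0.11 and -0.05. Rps19, the gene most often mutated in human Diamond-Blackfan anaemia, gave -0.19, -0.04, -0.22 and 0.10. The last value of Rps19 was -0.12 without mouse 4, at 0.77.

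Among large-subunit proteins Rpl26, which binds near the exit of the peptide tunnel, was the 1 member called in a wild-type response. In wild-type E. coli its log2 ratios were -1.61, -0.42, -0.06 and -0.46, with a mean of -0.64 ± 0.19 (SE, n = 4 mice, limma adjusted p = 0.02349). Without wild-type E. coli mouse 1, which held the lowest value, it was -0.31 and the call was lost. In wild-type LPS the mice gave -0.73, -0.33, -0.48 and -0.34, with a mean of -0.47 (limma adjusted p = 0.1052). MyD88-/- cells gave -0.24 with LPS and 0.01 with E. coli (limma adjusted p = 0.5102 and 0.9853). The genotype difference for E. coli was 0.65 ± 0.26 (limma adjusted p = 0.2916).

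Rpl24 and Rpl15 gave ratios well below 0 in several groups without a call. Rpl24, at the bridge between the subunits, gave -0.36, -0.49, -0.50 and -0.11 in the 4 groups in order, with a lowest limma adjusted p of 0.07807. Without wild-type E. coli mouse 1, at -1.37, the third value was -0.21, and the fourth ran from -0.68 to 0.68 over 28 alternatives. Rpl15, a core protein of the large subunit, gave -0.32, -0.56, -0.73 and -1.10 in MyD88-/- E. coli mice, with a mean of -0.68 ± 0.22 (limma adjusted p = 0.0706). In MyD88-/- LPS its 3 mice with a value gave -0.64, -0.77 and -0.60, with a mean of -0.67 ± 0.26 (limma adjusted p = 0.1331). All its MyD88-/- values were below 0, and wild-type LPS mice spread from -0.83 to 0.82.

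The widest ratios came from probes whose mice disagreed. Rpl37a had the lowest mean of any tested member, -0.98 ± 0.50 in wild-type LPS (limma adjusted p = 0.2124), with mice at -0.75, -2.61, -0.14 and -0.42, and -0.43 without mouse 2. Its MyD88-/- E. coli mice ran from -1.32 to 2.32. Rpl6 had the highest mean of the tested members in wild-type LPS, 0.48 ± 0.29 (limma adjusted p = 0.3088), with mice from -0.07 to 1.13, and 0.26 without mouse 2. Rpl10a, the protein known for its use as a tag to purify ribosomes, gave 0.41 ± 0.22 in wild-type E. coli (limma adjusted p = 0.2043), with mice at 1.24, 0.53, -0.05 and -0.07, and 0.14 without mouse 1.

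Members known for roles outside or in the assembly of the ribosome did not pass the test. Rpl5, which joins Rpl11 and 5S RNA in a complex that restrains Mdm2 and so stabilises p53, gave 0.12, 0.14, 0.09 and 0.24 in the 4 groups in order. Rpl10, needed for the joining of the subunits, gave -0.29, 0.04, -0.28 and -0.22. Rpl22, whose loss impairs T cell development in mice, gave -0.09, 0.06, -0.26 and -0.05. Rpl32, Rpl34 and Rpl7a stayed between -0.28 and 0.23.

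Of the stalk, which recruits the translation factors, Rplp1 was tested. It gave -0.27 in wild-type LPS and -0.30 in wild-type E. coli (limma adjusted p = 0.1376 and 0.08683), and -0.003 and -0.06 in MyD88-/- cells. Its wild-type E. coli mice were at -0.12, -0.48, -0.40 and -0.20.

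The 4 paralogs tested showed no response like that of Rpl39l. Rpl3l, known from heart and skeletal muscle, gave 0.44, -0.23, 0.16 and -0.18 in the 4 groups in order, with 3 mice in each wild-type group. In wild-type LPS 2 of its arrays were at the floor, and with floor values kept its ratio there was -2.23. Rps27l, a p53 target in human cells, gave values from -0.15 to -0.005, Rpl36al from -0.23 to -0.08 and Rpl7l1 from 0.04 to 0.18. The lowest limma adjusted p among the 4 was 0.1867.

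The remaining 20 members missed the filter and were not tested. They are Rplp0, Rplp2, Rpsa, Rps3, Rps3a1, Rps6, Rps13, Rps15, Rps21, Rps25, Rpl3, Rpl4, Rpl11, Rpl13a, Rpl22l1, Rpl30, Rpl35, Rpl36, Rpl36a and Rpl37. At least 2 mice had a value for 10 of them in wild-type LPS, 15 in MyD88-/- LPS, 12 in wild-type E. coli and 10 in MyD88-/- E. coli. Their group means ran from -1.08 (Rpl4) to 1.35 (Rps6), from -0.63 (Rpl4) to 1.29 (Rplp0), from -1.86 (Rpl37) to 1.48 (Rplp2) and from -0.95 (Rpl37) to 1.399 (Rpl36) in the same order. Mice of a group disagreed on most of these. Rplp2 gave 0.57 ± 0.59 in wild-type LPS, Rpsa, the laminin receptor, 0.68 ± 0.57 in wild-type LPS, and Rps3, which in human cells also binds NF-kB p65 in the nucleus, 0.62 ± 0.89 in MyD88-/- LPS (SD, n = 3 mice). Rpl22l1, the paralog of Rpl22, ran from -1.48 to 3.09 in MyD88-/- LPS. Rpl3 in MyD88-/- E. coli was an exception, at -0.73 ± 0.10 (SD, n = 3 mice). Of these, mouse 4, at -0.62, rests on 1 array, as its unswapped array was at the floor and counts as missing. Rps6, the substrate of the kinase S6K, had 2 mice in wild-type LPS, at 0.83 and 1.87. Rpl13a, which in human monocytes leaves the ribosome after interferon gamma to silence inflammatory messages, had 2 mice in MyD88-/- E. coli, at -0.54 and 0.27.

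No member passed the test of the genotype difference, which 0.287% of all probes passed for LPS and 0.751% for E. coli. At such shares 0 of 49 is near what all probes gave. For LPS the median difference, MyD88-/- minus wild-type, was 0.03 over the members and 0.01 over all probes, and limma called 0 of 49 with 2 at an unadjusted p under 0.05, beside 8.91% of all probes. For E. coli the median difference was 0.06 over the members and 0.02 over all probes, with 0 of 49 called and 3 at an unadjusted p under 0.05, beside 13.3% of all probes. Mouse values without overlap between the genotypes were seen for 2 members higher in MyD88-/- LPS (Rpl10 and Rps26) and 1 lower (Rpl3l, whose difference was -0.67 and turned to 1.99 with floor values kept), beside 3.40% and 3.28% of all probes. For E. coli they were seen for 2 members higher (Rps10 and Rps26), beside 4.78% of all probes, and 0 lower, beside 4.30%. The share of the members is near that of all probes.

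The stimuli and the interaction gave 0 calls by limma among the members, and 0 among all probes tested (0%). At an unadjusted p under 0.05 the members numbered 0 for E. coli minus LPS in wild-type cells, 0 in MyD88-/- cells and 1 for the interaction, beside 4.05%, 2.42% and 2.99% of all probes. The largest of these differences was that of Rpl37a in wild-type cells, 0.94.

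Other genes of the translation machinery were set beside the ribosomal proteins. The proteins of the mitochondrial ribosome, which are encoded in the nucleus and translate mitochondrial messages, had 62 probes on the array and 48 tested. Limma called 10.4%, 10.4%, 10.4% and 8.33% of them in the 4 groups in order, beside 17.0%, 9.98%, 21.2% and 10.8% of all probes, with 1 higher and 4 lower in wild-type LPS, in MyD88-/- LPS and in wild-type E. coli, and 1 higher and 3 lower in MyD88-/- E. coli. Mrpl52 was the one that rose each time, by 1.12 ± 0.11, 0.95, 1.25 and 1.08, and Mrps15 fell each time, with -0.62, -0.60, -0.69 and -0.69. Mrps18b was called lower in both wild-type responses, at -0.46 with LPS and -0.46 with E. coli. Mrpl18 was called lower in both MyD88-/- responses, at -0.50 with LPS and -0.41 with E. coli, and so was Mrpl2, at -0.35 and -0.51. Among others called lower were Mrpl10 at -0.47 in wild-type LPS, Mrpl9 at -0.60 in MyD88-/- LPS and Mrpl1 at -0.61 in wild-type E. coli.

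Ribosome biogenesis genes, whose products process ribosomal RNA and assemble the subunits, rose more often than they fell. Of 49 tested, 9 rose and 1 fell in wild-type LPS, 5 and 1 in MyD88-/- LPS, 11 and 2 in wild-type E. coli and 5 and 1 in MyD88-/- E. coli, with medians of 0.23, 0.04, 0.25 and 0.04. In both directions together 20.4%, 12.2%, 26.5% and 12.2% were called, beside 17.0%, 9.98%, 21.2% and 10.8% of all probes. The share thus lay slightly above that of all probes in each response, and whether it exceeds that share was not tested. Over all probes 7.99% rose and 9.04% fell in wild-type LPS, 5.28% and 4.70% in MyD88-/- LPS, 9.43% and 11.8% in wild-type E. coli and 6.35% and 4.42% in MyD88-/- E. coli. Sbds, which releases Eif6 from new large subunits, rose by 1.51 ± 0.17, 0.86, 1.66 and 0.96 in the 4 groups in order. Imp4, a processing factor of small-subunit RNA, rose by 1.19, 0.77, 1.22 and 0.79, and the GTPase gene Gtpbp4 by 0.55, 0.44, 0.73 and 0.42. Ubtf, an RNA polymerase I factor, fell in all 4, to -0.90 in wild-type E. coli. Myc, the transcription factor that drives many of these genes, is counted in the list. It rose by 2.26 ± 0.43 in wild-type LPS, and its E. coli response was lower in MyD88-/- cells by -2.86 ± 0.61 (limma adjusted p = 0.04052).

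**Figure D4:**
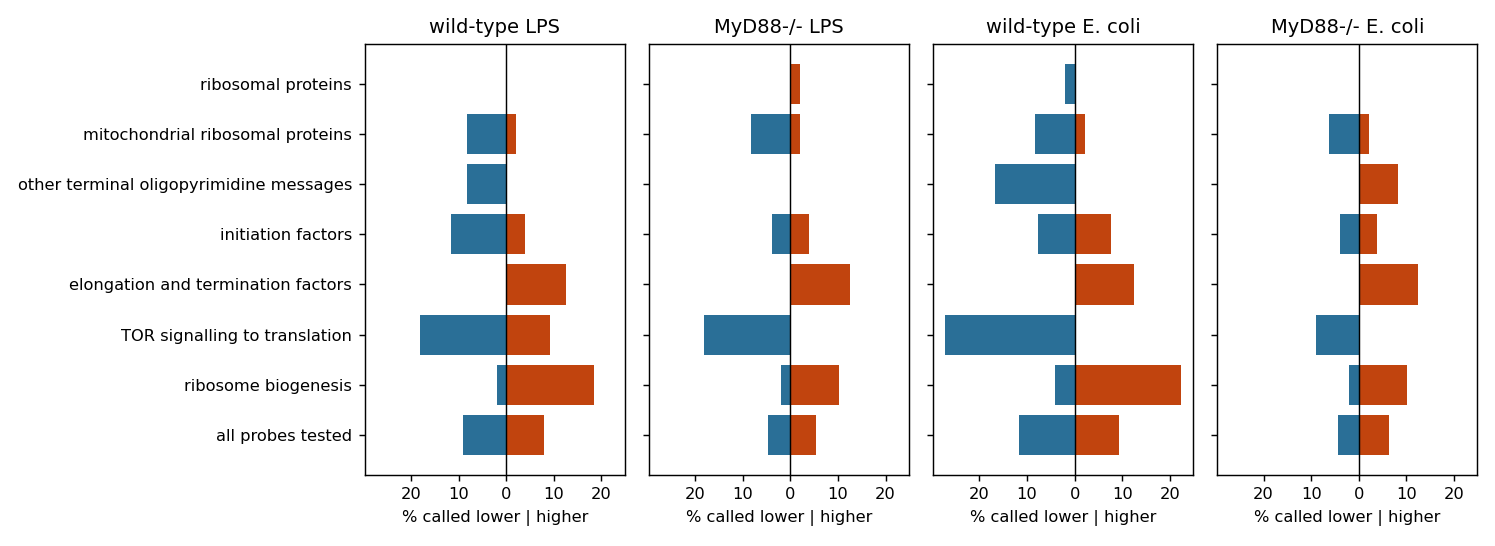
Bars give the percent of tested probes called lower (left of 0) and higher (right of 0) at an adjusted p under 0.05 for each list of translation genes and for all probes tested, in each response. The ribosomal protein bars stand for 0 or 1 of 49 probes, while ribosome biogenesis genes reach 11 of 49 called higher in wild-type E. coli; the lists of elongation and termination factors, other TOP messages and TOR signalling hold 8, 12 and 11 tested probes.

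Of 12 other messages with a TOP tract, limma called 8.33%, 0%, 16.7% and 8.33% in the 4 groups in order, and 1 or 2 of 12 is near the share of all probes. Tpt1, which encodes translationally controlled tumour protein, fell, with -0.81 ± 0.16 in wild-type LPS and -0.85 ± 0.16 in wild-type E. coli, where the histone chaperone gene Nap1l1 also fell, with -0.50. Pabpc1, the poly(A) binding protein, rose by 0.39 in MyD88-/- E. coli. Limma called 0 of 12 in MyD88-/- LPS, with 3 at an unadjusted p under 0.05.

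Of 26 initiation factors and their regulators, limma called 15.4%, 7.69%, 15.4% and 7.69% in the 4 groups in order, each below the share of all probes. Of the 26, 1 rose and 3 fell in wild-type LPS, 1 and 1 in MyD88-/- LPS, 2 and 2 in wild-type E. coli and 1 and 1 in MyD88-/- E. coli. Eif2ak4, the kinase GCN2 that senses lack of amino acids, fell in all 4, most in wild-type E. coli, with -1.17 ± 0.28. Denr, which works in reinitiation and recycling, rose by 2.40 ± 0.53 in MyD88-/- LPS and 1.83 ± 0.46 in wild-type E. coli. It was not called in wild-type LPS, at 0.88, or in MyD88-/- E. coli. Its genotype difference was 1.53 for LPS and -1.72 for E. coli, opposite in sign, and neither passed. Eif2ak2, the interferon-induced kinase PKR, rose by 0.71 in MyD88-/- E. coli. Eif1a rose by 0.71 in wild-type LPS and Eif3j1 by 0.50 in wild-type E. coli. Eif2s2, a subunit of eIF2, fell in both wild-type responses, with -0.49 and -0.51, and Eif2ak3, the kinase PERK, fell with -0.76 in wild-type LPS.

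Among 8 elongation and termination factors 1 rose in each response (12.5%), near the share of all probes called. It was Eef1e1, a scaffold protein of the tRNA synthetase complex, in wild-type LPS (0.93 ± 0.15) and wild-type E. coli (1.02 ± 0.15), the release factor Etf1 in MyD88-/- LPS (0.40) and its partner Gspt1 in MyD88-/- E. coli (1.38). The genotype difference of Eef1e1 passed for LPS, at -1.15 ± 0.21 (limma adjusted p = 0.02253), and for E. coli, at -1.14 ± 0.21 (limma adjusted p = 0.01468).

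Of 11 genes of TOR signalling to translation, 1 rose and 2 fell in wild-type LPS, 2 fell in MyD88-/- LPS, 3 fell in wild-type E. coli and 1 fell in MyD88-/- E. coli. These are 27.3%, 18.2%, 27.3% and 9.09% of a list of only 11 probes, beside 17.0%, 9.98%, 21.2% and 10.8% of all probes. Mknk2, the kinase that phosphorylates eIF4E, fell in all 4, with -1.50 ± 0.21, -1.02, -1.17 and -1.22, and was the 1 call in MyD88-/- E. coli. The list was drawn up with Mknk2, Mknk1 and the Rps6ka kinases beside TOR genes. Mknk2 is among the probes tested, so the shares are not those of TOR signalling alone. Eif4ebp2, a repressor of eIF4E, fell in wild-type LPS (-0.69) and wild-type E. coli (-0.63). Rptor, the mTORC1 scaffold Raptor, fell in MyD88-/- LPS (-1.25) and wild-type E. coli (-1.20), and Rictor, the scaffold of mTORC2, rose in wild-type LPS (0.52).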

How the data were processed

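RNA of cultured macrophages was hybridised to 31 2-colour spotted arrays. The deposited values are log2 ratios made by the authors, who scanned with a GenePix 4000B, quantified with GenePix Pro 3.0 and used the BASE and GeneSpring software, per the labels. The background correction, normalization and spot filter are not given in the sources used here. Channel intensities were not analysed here.

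Values at the floor of log2(0.01) were treated as missing (1.63% of all values, 0.967% of ribosomal protein values). The 15 dye pairs correlated between 0.256 and 0.71 across probes, so no array was turned. Averaging each dye pair gave 16 mouse-level ratios. Probes with values in at least 3 mice of every group entered a linear model with 1 coefficient per group and 9 comparisons (lmFit and eBayes of limma 3.58.1, R 4.3.3), Benjamini-Hochberg adjustment ran over all 7325 probes tested, and a call is an adjusted p under 0.05. All p are 2-sided. Errors are limma's SE unless named SD. The code was tested on simulated data. The labels name each replicate as a mouse.

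Members were taken by gene symbol, with no value used, but the choice of this gene family and of the gene lists was made with earlier results of these data known. Named genes are Rpl39l, every member called, the 4 highest and 4 lowest members of each response, a fixed set of members of known role, and at most 4 called genes of each other list per comparison, smallest p first. The lists are initiation factors, elongation and termination factors, other TOP messages, ribosome biogenesis, TOR signalling, mitochondrial ribosomal proteins and markers of 7 cell types. Alternatives covered scaling, the floor, the dyes, the filter, the model and leaving out each mouse. Symbols come from the platform's probe table, and start sequences from RefSeq on GRCm38.p6, where 57 of 69 genes matched. Figures were drawn with matplotlib 3.10.9.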

Additional observations from a re-analysis of the deposited data

Results flagged for a closer look

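In groups of 4 mice, 1 mouse stood apart from the other 3 by Dixon's criterion in 7 of 101 groups examined over 35 named members and the list median, and chance gives about 1 in 20. Wild-type LPS mouse 1 was low for Rpl10, at -0.51 with the others between -0.24 and -0.19, and for Rps26, at -0.67 with the others between -0.10 and -0.03. MyD88-/- LPS mouse 2 was high for Rpl26, at -0.040 with the others between -0.33 and -0.29. MyD88-/- LPS mouse 4, the mouse with 1 array, was low for Rpl24, at -0.98 with the others between -0.37 and -0.28. Its median over the ribosomal protein probes was also low, at -0.12 with the others between -0.04 and -0.03. MyD88-/- E. coli mouse 4 was high for Rplp1, at 0.20 with the others between -0.18 and -0.12, and for Rps14, at 0.72 with the others between -0.38 and -0.23.

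The response of the Rpl39l probe to E. coli differed between the genotypes, by -4.35 on the log2 scale in limma's test of the difference.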

How the results depend on the processing

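Over 28 alternatives (29 for comparisons between stimuli) the medians of the ribosomal protein probes stayed below 0 and moved by less than the spread between mice, and Rpl39l was called higher in all 4 responses. Counts of members called changed as follows. On unswapped arrays alone they were 3 in wild-type LPS, 3 in MyD88-/- LPS, 5 in wild-type E. coli and 1 in MyD88-/- E. coli, and on swapped arrays alone 0 in MyD88-/- LPS and 0 in wild-type E. coli. With mice of both arrays only they were 0 in MyD88-/- LPS, 3 in wild-type E. coli and 2 in MyD88-/- E. coli, and with the groups compared alone 0 in MyD88-/- LPS and 0 in wild-type E. coli. With arrays centred and scaled they were 2 in wild-type E. coli and 1 in MyD88-/- E. coli. In wild-type E. coli the count was 2 with floor values kept, with values in all 4 mice, with values in 2 mice (where Rpl37 joined) or with 1 probe per gene. Apart from Rpl37, the member added in these settings was Rps10. A dye term with a random block gave 2 in wild-type E. coli, 1 in MyD88-/- E. coli and 1 for the E. coli genotype difference (Rps26). Leaving out 1 mouse gave 0 to 1 calls in wild-type LPS, 0 to 2 in MyD88-/- LPS, 1 to 2 in wild-type E. coli and 0 to 1 in MyD88-/- E. coli. The cause was not tested.

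The LPS genotype difference of Rpl39l passed with values in all 4 mice (-2.80, adjusted p = 0.0306), with mice of both arrays only (-2.89, adjusted p = 0.03103) and without MyD88-/- E. coli mouse 4 or either of mice 2 and 3 of wild-type E. coli, and ran from -3.00 to -2.37 when 1 mouse was left out. The E. coli difference was -3.18 on unswapped arrays alone and missed the threshold. The difference between stimuli in MyD88-/- cells turned to 1.15 on unswapped arrays alone, and ran from -0.56 to 0.16 when 1 mouse was left out, being above 0 without MyD88-/- LPS mouse 2 or MyD88-/- E. coli mouse 1 or 2 (0.06, 0.16 and 0.003). Rpl26 in wild-type E. coli ran from -0.83 to -0.31 and missed the threshold on swapped arrays alone, with the groups compared alone and without wild-type E. coli mouse 1. Residuals of same-numbered mice had r between -0.057 and 0.14, with the own number best in 2 of 8. The consensus correlation of a mouse's arrays of 1 stimulus was itself only 0.118, so this check cannot tell whether same-numbered mice are related. Mouse number as a replicate block gave 0 members called between stimuli. Across dye pairs the 49 members correlated between -0.32 and 0.57, with 4 of 15 pairs below 0.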
